A study of Mus musculus with 2 samples.

Results

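A list of 10 genes of the smooth muscle contractile apparatus (Acta2, Actg2, Actc1, Myh11, Tagln, Cnn1, Lmod1, Synpo2, Des and Myocd) was followed across the cells of the mouse colon. All 10 were among the 17809 genes listed for a wild-type library, and 9 were among the 15972 genes listed for a reporter library, in which Actc1 was not listed. Each library was 1 run of droplet-based single-cell RNA-seq on untreated colon pooled from 3 female mice, aged 8 to 12 weeks by the study's methods. The wild-type library held 7495 cells of C57BL/6 mice, sorted as EpCAM+ CD45- epithelial and EpCAM- CD45- non-epithelial cells and mixed in equal parts. The reporter library held 4409 GFP+ mesenchymal cells of Pdgfra-H2B-eGFP mice, in which a nuclear green fluorescent histone is made under the control of Pdgfra, a receptor gene of fibroblasts. Its sort kept cells with GFP, so cells without Pdgfra were not sought in it. Each library is 1 sample and its cells cannot be traced to single mice, so no difference below has a replicate check and no p-value is given. The libraries also differed in kit, strain, gate and depth, which cannot be told apart, so classes were compared within a library only.

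Smooth muscle shortens when myosin heads pull on actin filaments, and the heads are switched on by calcium through calmodulin and myosin light chain kinase. The actins and the smooth muscle myosin heavy chain make up the filaments, calponin and transgelin bind them, leiomodin builds them, and desmin ties them to the dense bodies of the cell. Myocardin, a partner of the serum response factor, switches many of these genes on through a DNA element named the CArG box. Besides the muscle layers of the gut wall, pericytes and the muscle cells around vessels use parts of this set, and alpha smooth muscle actin also marks contractile fibroblasts.

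Cells were grouped by expression with these genes left out of the clustering, and the groups were named from marker lists that hold none of them. In the wild-type library this gave 936 smooth muscle-like cells, 118 pericyte-like cells, 817 cells like crypt top fibroblasts (CTFs, the Pdgfra-high fibroblasts beneath the upper crypt) and 1704 other fibroblasts. The last were 1143 cells like the first and 561 like the second type of crypt bottom fibroblast (CBFs1 and CBFs2). The deposited values were read as corrected counts, that is, the number of tagged molecules of a gene in a cell after the authors' model had evened out depth. The 10x assay tags the 3′ end of each molecule, so the values carry no division by length. Median corrected totals per cell lay between 7988 and 8620 in the 4 stromal classes, and the median number of genes found lay between 2102 and 2691. Epithelial cells, which do not use most of these genes, were the measure of background: 2475 such cells had a median total of 9706. A share of cells at or below the epithelial share was read as background, and for Acta2, which was more widespread, the shares in further classes are given as well. Intervals of shares are exact 95% Clopper-Pearson intervals and cover counting error only. Where no cell was counted, the upper limit given is instead 3 divided by the number of cells, which is lower than the exact one.

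The classes held the markers of their names. The summed mean of 10 smooth muscle markers was 35.1 in the smooth muscle-like class against 10.3 in pericytes, 4.71 in CTFs, 4.24 in other fibroblasts and 0.285 in epithelium. It was led by Hhip, and 8 of the 10 were found in at least 10% of the smooth muscle-like cells. The study could not exclude that its own smooth muscle cluster also held myofibroblasts, and these were not told apart here either. For 10 pericyte markers, led by Rgs5, the sum was 59.8 in pericytes and 3.40 in smooth muscle. The pericyte-like class also held 5 markers of arteriolar muscle at a sum of 2.71, against 0.0235 in the smooth muscle-like class. Whether it was a mixture of mural cells, those of the vessel wall, or single cells held both marker sets was not tested. Markers of epithelium were present in all classes: of 7 such genes a pericyte held 3.90 on average, a CTF 2.85, a smooth muscle-like cell 2.08 and an other fibroblast 1.90. In the reporter library the average was 0.050 in CTFs and 0.036 in other fibroblasts, and no class there carried the smooth muscle or pericyte markers.

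Acta2, Des and Actc1 stand for the patterns described below, and the 150 bases before the RefSeq start of each (GRCm38.p6, printed 5′ to 3′ in the direction of transcription) are given here because myocardin acts at promoters. Acta2 extended into CTFs, Des was highest in pericytes, and Actc1 had the lowest pericyte mean relative to smooth muscle. Capitals mark the CArG box in its strict form, CC, then 6 bases of A or T, then GG, searched on both strands.
Acta2, chr19:34255374-34255523, minus strand: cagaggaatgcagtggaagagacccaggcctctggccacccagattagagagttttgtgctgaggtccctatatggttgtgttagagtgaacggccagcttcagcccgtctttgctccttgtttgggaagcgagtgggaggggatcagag
Des, chr1:75360142-75360291, plus strand: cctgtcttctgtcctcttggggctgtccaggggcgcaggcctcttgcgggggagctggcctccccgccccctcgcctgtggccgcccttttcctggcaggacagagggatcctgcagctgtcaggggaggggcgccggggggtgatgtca
Actc1, chr2:114052876-114053025, minus strand: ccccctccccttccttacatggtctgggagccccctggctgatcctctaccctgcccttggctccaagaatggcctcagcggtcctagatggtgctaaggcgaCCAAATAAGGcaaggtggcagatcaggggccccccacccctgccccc
Of the 6 members with a window in the RefSeq table (250 bases before to 50 after the start), 1 held a box of this strict form, Actc1, 47 to 38 bases before its start. Of all 32851 windows, 1.629% held one. No match says only that the strict form was not in this window. Boxes with a G or C in the core were not searched. Relative to the GENCODE M21 start, the RefSeq start lay 673 bases downstream for Actc1, 217 for Acta2 and -37 for Des. The Actc1 and Acta2 stretches thus lie inside the gene coordinates given below. The Acta2 stretch holds ccctatatgg and ccttgtttgg, each of which departs from the strict form by 1 core base.

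In smooth muscle-like cells the 3 contractile filament genes with the broadest use, the alpha actin Acta2, the gamma actin Actg2 and the myosin heavy chain Myh11, were found in nearly every cell. Acta2 (chr19:34241090-34255590, minus strand) had a mean corrected count of 105 ± 41.2 (SD over 936 cells), with 10% of its cells at 52 or less, a median of 105.5 and a maximum of 222. Actg2 (chr6:83512905-83536265, minus strand) had a mean of 17.6 ± 10.8, and Myh11 (chr16:14194535-14291372, minus strand) one of 22.4 ± 12.8. These shares of cells were 99.9%, 98.6% and 99.5%. The third actin, Actc1 (chr2:114047282-114053548, minus strand), best known from heart, was patchy: its mean was 1.58, its median 0 and its maximum 36, and 38.5% (35.3 to 41.7) of the cells held it. The 3 actins could be told apart by 3′ reads, since none of the 341 words of 60 bases in the last 400 bases of each transcript was shared with another actin.

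Among the actin-binding members, Tagln (transgelin; chr9:45929619-45936058, minus strand) was found in all 936 smooth muscle-like cells at a mean of 76.6 ± 35.1. Cnn1 (calponin 1; chr9:22099216-22109630, plus strand) had a mean of 7.29 ± 4.92 and was found in 94.2% of the cells. Lmod1 (leiomodin 1; chr1:135324807-135368065, plus strand) had a mean of 7.94 ± 4.34 in 96.3% of the cells. Of these 3, Tagln was as widespread as Acta2 and Myh11, and Cnn1 and Lmod1 were found in slightly fewer cells than those genes. Synpo2 (synaptopodin 2, an actin bundler of Z-discs and dense bodies; chr3:123076519-123236149, minus strand) was low, with a mean of 0.946 and a share of 55.4%. The intermediate filament gene Des (desmin; chr1:75360329-75368579, plus strand) was found in 47.9% (44.6 to 51.1) of smooth muscle-like cells at a mean of 1.57. The regulator Myocd (myocardin; chr11:65176561-65269989, minus strand) was found in 54.3% at a mean of 0.966. Coordinates are those of GENCODE M21 on GRCm38, in which all 10 are protein-coding genes. Genes on the opposite strand overlap Tagln, Lmod1, Des, Synpo2 and Actc1, and genes on the same strand overlap Synpo2, whose reads could be shared with them.

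**Figure D1:**
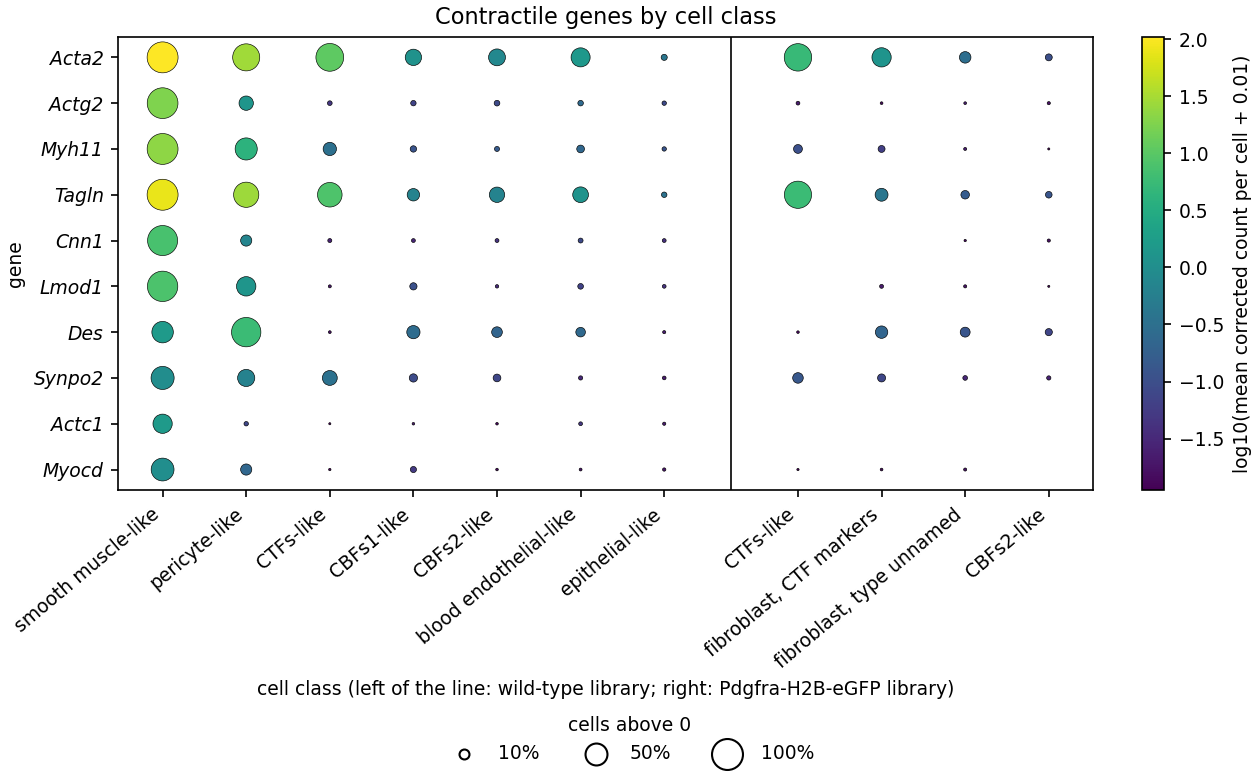
Mean corrected count per cell (colour, log10 scale after adding 0.01) and share of cells above 0 (dot area) of each contractile gene by cell class, with the wild-type library left of the line and the Pdgfra-H2B-eGFP library right of it; a class with no cell above 0 has no dot. All genes are strongest in smooth muscle except Des, at a mean of 5.6 in pericytes and 1.57 in smooth muscle, and the CTFs of both libraries carry Acta2 and Tagln.

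The set separated smooth muscle from CTFs for every member, but by very different amounts. All 10 members had a class mean at least 2-fold higher in smooth muscle, where 7.88% of all 12219 genes tested did, and none was 2-fold lower (8.57% of genes). The median log2 ratio of the members was 6.45, against -0.02 over all genes. The members fell into those that CTFs held and those that they did not. The mean of Acta2 was 105 in smooth muscle and 10.8 in CTFs, so CTFs held 10.3% of the smooth muscle level (log2 ratio 3.28). For Tagln the means were 76.6 and 8.16, or 10.7% (log2 ratio 3.23). For Synpo2 they were 0.946 and 0.327, or 34.6% (log2 ratio 1.504). Myh11, the motor itself, stood lower, at 22.4 and 0.311, or 1.39% (log2 ratio 6.13). The other members were at or near background in CTFs: Actg2 was found in 1.96% of CTFs and 1.70% of epithelial cells, Cnn1 in 1.35% and 1.21%, and Lmod1 in 0.612% and 1.13%. The same held for Des at 0.490% and 0.687%, for Myocd at 0.245% and 0.808%, and for Actc1 at 0.122% and 0.727%. CTFs thus held an actin and its binding protein, while the gamma actin, calponin 1, leiomodin, desmin and myocardin genes lay at or near the epithelial shares.

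The range of Acta2 in single CTFs reached into, but not across, that of smooth muscle. Acta2 was found in 80.4% (77.5 to 83.1) of CTFs, with a median of 6, a 90% quantile of 29 and a maximum of 85. Of the 817 CTFs, 16 (1.96%) reached the 10% quantile of smooth muscle-like cells, 52, and none reached the smooth muscle median of 105.5 (0 of 817 cells allows a share of up to 0.367%). Tagln was found in 62.8% of CTFs, with a median of 2 and a maximum of 105. The smooth muscle 10% quantile of 32 was reached by 53 CTFs (6.49%) and the median of 75 by 3. In most CTFs that held Acta2 its partner was present too: Tagln was found in 74.3% of the 657 CTFs with Acta2 and in 15.6% of the 160 without. Across the 817 CTFs the correlation of the 2 genes on the ln(1 + value) scale was 0.692, a description of cells that share a library.

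Smooth muscle itself was above the other fibroblasts for all 10 members (6.23% of 13089 genes were at least 2-fold higher and 10.8% lower), with log2 ratios from 2.65 for Des to 7.85 and a median of 6.6. CTFs stood between the classes for some members and below both for others. Against the other fibroblasts of the wild-type library, the members split. Of the 10, 4 were at least 2-fold higher in CTFs, where 5.05% of 13055 genes tested were, and 3 were at least 2-fold lower, where 8.23% were. 9 of the 10 passed the filter of 20 summed values, and Actc1 did not. The 4 were Tagln, with means of 8.16 in CTFs and 0.657 in other fibroblasts (log2 ratio 3.62), Acta2 with 10.8 and 1.05 (3.36), Synpo2 with 0.327 and 0.0763 (1.96) and Myh11 with 0.311 and 0.120 (1.30). Des went the other way. It was found in 4 of 817 CTFs, or 0.490% (0.134 to 1.25), and in 271 of 1704 other fibroblasts, or 15.9% (14.2 to 17.7). The remaining lower members were Lmod1, found in 0.612% of CTFs and 3.76% of other fibroblasts, and Myocd, found in 0.245% and 2.52%. Actg2 and Cnn1 differed by less than 2-fold and lay near the epithelial share in both classes. The Acta2 of other fibroblasts, in 28.2% of cells, lay within the range of classes with no muscle identity, which was 3.56% in epithelial, 17.1% in immune, 20.5% in glia-like and 37.7% in blood endothelial-like cells. In an unnamed cluster of 489 cells with epithelial markers the share was 69.9% at a mean of 2.03. The CTF share of 80.4% and mean of 10.8 were above all of these. The 10 smooth muscle markers summed to 4.71 in CTFs and 4.24 in other fibroblasts. Much of this sum was Mustn1, and without it the sums were 1.54 and 1.55. Hhip, the leading marker of smooth muscle, was at 0.0845 in CTFs and 0.357 in other fibroblasts, below the 18.6 of smooth muscle in both.

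The reporter library gave a similar split in cells from other mice, sorted on Pdgfra. Its 519 CTFs-like cells were set against 3490 other fibroblasts, of which 851 were CBFs2-like and 2639 belonged to no named type. A further 234 cells with CTF markers, described below, were in neither class. No such cells were set apart in the wild-type library, so the CTF classes of the libraries are not like sets. Of the 9 members listed in the reporter library, 4 were at least 2-fold higher in CTFs (4.37% of 12328 genes) and 1 was at least 2-fold lower (6.44%). 8 members passed the filter, and Cnn1 did not. Tagln had means of 5.65 and 0.138 (log2 ratio 5.25), Acta2 of 5.35 and 0.238 (4.43), Myh11 of 0.0944 and 0.01003 (2.38) and Synpo2 of 0.123 and 0.0201 (2.15). The same 4 members were thus higher in CTFs of both libraries. Des was again nearly missing from CTFs-like cells, in 2 of 519 cells, or 0.385% (0.0467 to 1.39), against 305 of 3490, or 8.74% (7.82 to 9.73). The 234 cells left out held Des in a larger share of cells than either class. Cnn1 and Lmod1 were found in 0 of 519 CTFs, which allows a share of up to 0.578%, and in 0.344% and 0.544% of other fibroblasts. The 8 smooth muscle markers listed in this library summed to 0.877 in these CTFs and 1.45 in the other fibroblasts, most of it Mustn1. Without Mustn1 the sums were 0.366 and 0.346, and 2 of the 8 were at 0 in CTFs.

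**Figure D2:**
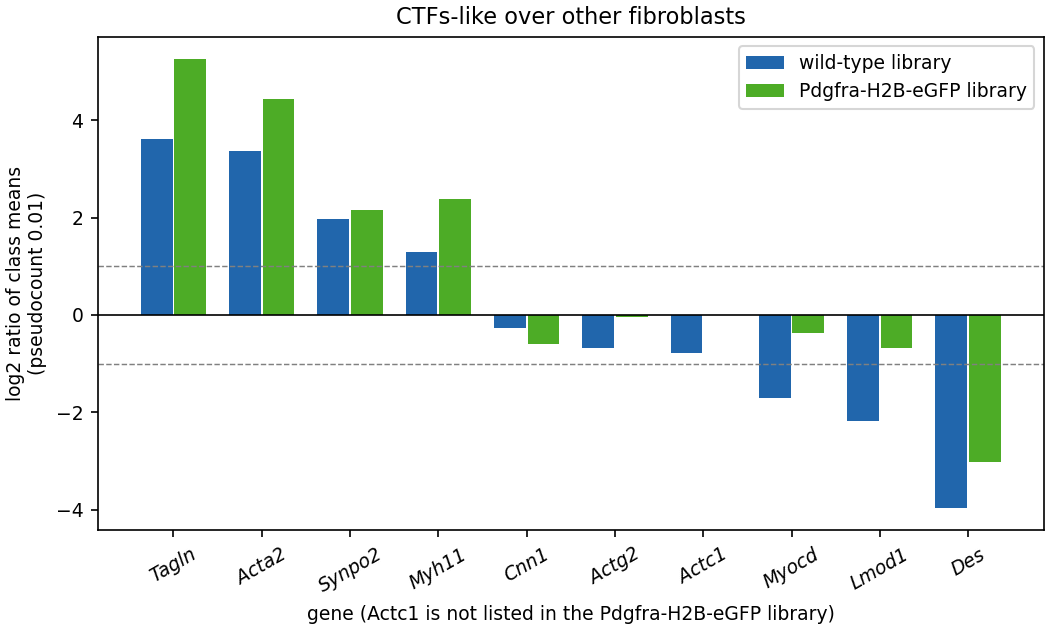
Log2 ratio of class means, CTFs-like over other fibroblasts, for each contractile gene in the wild-type (blue) and Pdgfra-H2B-eGFP (green) libraries, with dashed lines at 2-fold and no error bars because each library is 1 sample. Tagln, Acta2, Synpo2 and Myh11 lie above the upper line in both libraries and Des below the lower line in both, while Cnn1 and Lmod1 of the reporter library rest on CTFs with no cell above 0. The 234 reporter cells with CTF markers outside the CTFs-like class are in neither class.

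CTFs did not carry Acta2 and Tagln evenly. A second clustering of the wild-type library, at a finer resolution, gave a pair of CTFs-like clusters of 635 and 184 cells, which are not an exact division of the 817 and were chosen for description after their values were seen. The cluster of 635, led by Cybrd1, Sox6 and Wif1, had a mean Acta2 of 13.5 in 93.2% of its cells and a mean Tagln of 10.5 in 78.7%. The cluster of 184, led by Lpar3, Dmp1 and Il1rl1, had a mean Acta2 of 1.65 in 35.9% of its cells and a mean Tagln of 0.0870 in 7.07%. The smaller cluster had a median of 2951.5 genes a cell against 2271, and epithelial markers averaged 1.57 of 7 a cell in it and 3.22 in the larger one. The part of these differences in the levels was not tested. In the reporter library, 234 cells clustered apart with CTF markers but led by Ptprr, Nrg1 and Cox4i2 and outside the CTFs-like class. At resolution 0.8 a cluster of this name held 124 cells. The CTF markers summed to 4.799 in the 234 cells and 9.393 in the CTFs-like cells. The CBFs1 markers, mostly Adamdec1, summed to 36.19 in the 234 cells. That sum was 11.07 in CTFs-like cells and 14.98 in fibroblasts of no named type. Whether the 234 cells mix fibroblast types was not tested. The 234 cells had a mean Acta2 of 1.25 (38.5% of cells) and a mean Tagln of 0.389 (17.1%), against 5.35 and 5.65 in the CTFs-like cells. They held Des in 15.8% (11.4 to 21.1) of cells, above the 8.74% of the other fibroblasts of their library and the 0.385% of its CTFs-like cells. In the 184 wild-type cells above, Des was found in none, which allows a share of up to 1.63%.

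Among the other fibroblasts a few cells carried much of some contractile genes and little of others. Of the 1704 cells, 20 (1.17%) held 5 or more of the 10 genes, and these 20 cells carried 78.5% of the class's summed Myh11, 65.5% of its Actg2, 64.1% of its Cnn1, 50.2% of its Tagln and 39.1% of its Acta2. They carried 5.11% of its Des, 13.8% of its Synpo2 and 17.3% of its Myocd. Epithelial cells held 5 or more of the genes in 1.09% of cases, a share like that of the fibroblasts. Those 27 epithelial cells carried 83.0% of their class's Acta2, 92.5% of its Myh11, 98.8% of its Lmod1 and 46.7% of its Synpo2. The class used as background was thus uneven too. Des did not follow Acta2 among the other fibroblasts: it was found in 14.6% of the 481 with Acta2 and in 16.4% of the 1223 without. Between the types, Des was found in 18.02% (15.8 to 20.4) of CBFs1-like and 11.6% (9.06 to 14.5) of CBFs2-like cells. Lmod1 was found in 5.16% of CBFs1-like and 0.891% of CBFs2-like cells, and Myocd in 3.59% and 0.357%. Those 2 genes were above the epithelial shares only in the CBFs1-like class. In the reporter library the 4 fibroblast clusters outside the CTF groups held Des in 5.05% to 16.7% of cells, and CBFs2-like cells were the lowest. No contractile gene but Acta2, Tagln and Des was found in more than 10% of either CBF class.

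Pericytes held the set at lower levels, with 1 exception that reversed the order. Of the 10 members, 8 were at least 2-fold higher in smooth muscle than in pericytes, where 18.4% of 11274 genes were, and Des was at least 2-fold lower, where 9.84% were. The median log2 ratio was 2.28, against 0.24 over all genes. Mean Des was 5.6 ± 6.05 (SD over 118 cells) in pericytes and 1.57 in smooth muscle (log2 ratio -1.83). It was found in 89.8% (82.9 to 94.6) of pericytes against 47.9% of smooth muscle-like cells. Synpo2 differed by less than 2-fold, with means of 0.610 and 0.946. For the 8 others, the pericyte mean as a part of the smooth muscle mean was largest for Tagln at 35.9% and Acta2 at 26.9%, followed by Myocd at 22.8%, Myh11 at 18.01%, Lmod1 at 16.6%, Cnn1 at 9.77%, Actg2 at 7.54% and Actc1 at 4.29%. Actc1 rested on 2 of the 118 cells. Relative to smooth muscle-like cells, pericytes were thus poorest in the actins Actg2 and Actc1. Among the listed actins, Acta2 had the highest mean in pericytes, as it did in smooth muscle-like cells and CTFs.

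These pericyte levels depended on which pericytes were counted. When stromal cells with 3 or more of the 7 epithelial markers were left out, 38 pericytes remained and the median log2 ratio of smooth muscle over pericytes fell from 2.28 to 1.21. In those cells the log2 ratio was 0.81 for Acta2, 0.42 for Tagln and -0.20 for Synpo2, which changed its sign, while Des stayed higher in pericytes at -2.30. Without cells above 10% mitochondrial values the median was 3.20 instead.

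Within the pericyte-like class Acta2 and Tagln were concentrated in few cells and Des was not. Acta2 had a median of 3, a 90% quantile of 106.9 and a maximum of 348, above the highest smooth muscle-like cell at 222. The highest 10% of pericytes held 56.7% of the class's Acta2 and 30.9% of its Des. Tagln had a median of 3 and a maximum of 319. Some mural cells thus reached the Acta2 range of the smooth muscle-like class: 19 (16.1%) reached the 10% quantile of smooth muscle-like cells. Divided by 5 arteriolar muscle markers, a split made after the values were seen, 36 cells with at least 2 of them had a mean Acta2 of 70.0, a mean Tagln of 64.9 and a mean Myh11 of 9.69. The 45 cells with 1 marker had 8.73, 9.24 and 1.20, and the 37 with none had 11.5, 13.3 and 1.97. Cnn1 was 2.17 in the first of these groups and 0.0222 and 0.135 in the others, and Myocd was found in 33.3% of its cells. Des differed less, at 9.22, 3.89 and 4.16. Rgs5, the leading pericyte marker, did not follow the split, at 31.1, 37.7 and 31.5. Desmin was found in pericytes with and without Acta2 (87.8% of 90 and 96.4% of 28), while Myh11 was found in all 15 pericytes with Myocd and in 43.7% of the 103 without.

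Pericytes and CTFs, both with Acta2 and Tagln, differed in the rest of the set. Pericytes had the higher mean for each of the 10 members, and of the 9 that passed the filter all but Synpo2 were at least 2-fold higher (9.38% of 11178 genes were that much higher and 19.5% lower). Actc1 did not pass the filter. The medians of the log2 ratios were 3.93 for the members and -0.23 for all genes. Acta2 was found in 76.3% (67.6 to 83.6) of pericytes and 80.4% of CTFs, while its means were 28.3 and 10.8, so the share and the mean put the classes in different orders and no order was read from the shares. Its median was 3 in pericytes and 6 in CTFs. Pericytes with 1 or no arteriolar marker had mean Acta2 of 8.73 and 11.5, near the CTF mean. The log2 ratio of Acta2 means, 1.39, was 0.25 without cells above 10% mitochondrial values. It was 2.48 without stromal cells with 3 or more epithelial markers. Myh11 was found in 50.8% of pericytes and 18.2% of CTFs, and Lmod1 in 39.0% and 0.612%. Des set the classes apart most, at 89.8% and 0.490%.

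**Figure D3:**
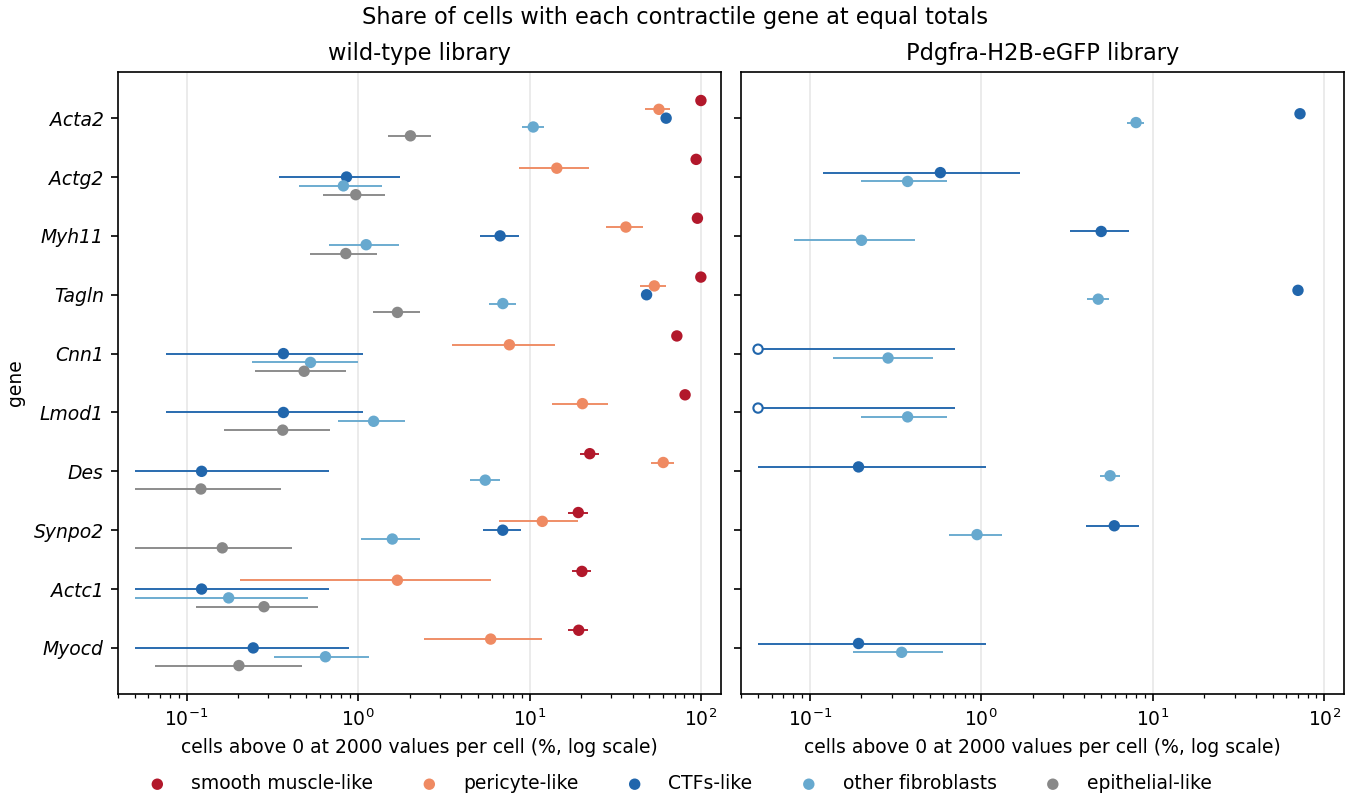
Share of cells with each contractile gene above 0 after every cell was thinned to 2000 values (log scale), by class, with exact 95% Clopper-Pearson intervals; open points at the left edge mark 0 cells, and intervals are clipped there. Smooth muscle leads for every gene but Des, which is found in 60.2% of thinned pericytes and 22.4% of thinned smooth muscle-like cells.

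Thinning to equal totals of corrected values left smooth muscle with the highest share for all members but Des. After each cell had been thinned to 2000 values, with no cell left out, Acta2 was found in 99.8% of smooth muscle-like cells, 56.8% of pericytes, 62.5% of CTFs, 10.5% of other fibroblasts and 2.02% of epithelial cells. Myh11 was found in 95.2%, 36.4%, 6.73%, 1.12% and 0.848% of the same classes. At this total other fibroblasts were near the epithelial share for Myh11, while CTFs were not. Synpo2 was found in 19.2%, 11.9%, 6.98%, 1.58% and 0.162%. In the reporter library at the same total, Acta2 was found in 72.3% of CTFs and 7.99% of other fibroblasts, and Tagln in 70.3% and 4.81%. The plot of thinned shares shows Des as the only member lower in CTFs than in other fibroblasts with intervals apart in both libraries.

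The number of contractile genes found together in a cell set smooth muscle and pericytes apart from the other named classes. A smooth muscle-like cell held a median of 8 of the 10, and 923 of 936 cells (98.6%, 97.6 to 99.3) held at least 5. In pericytes 41 of 118 (34.7%, 26.2 to 44.1) did, and these 41 cells carried 91.7% of the class's Acta2 and 55.8% of its Des. In CTFs 7 of 817 (0.857%, 0.345 to 1.76) held at least 5, in other fibroblasts 20 of 1704 (1.17%, 0.718 to 1.81) and in epithelium 1.09%. By this count CTFs were not above the background, although 27.7% of them held at least 3 of the genes against 4.99% of other fibroblasts. The few CTFs with 5 or more carried 2.55% of the Acta2 and 3.70% of the Tagln of their class, unlike the 20 other fibroblasts described above. In the reporter library none of the 519 CTFs (a share of up to 0.578%) and 4 of the 3490 other fibroblasts held 5 of the 9 genes.

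**Figure D4:**
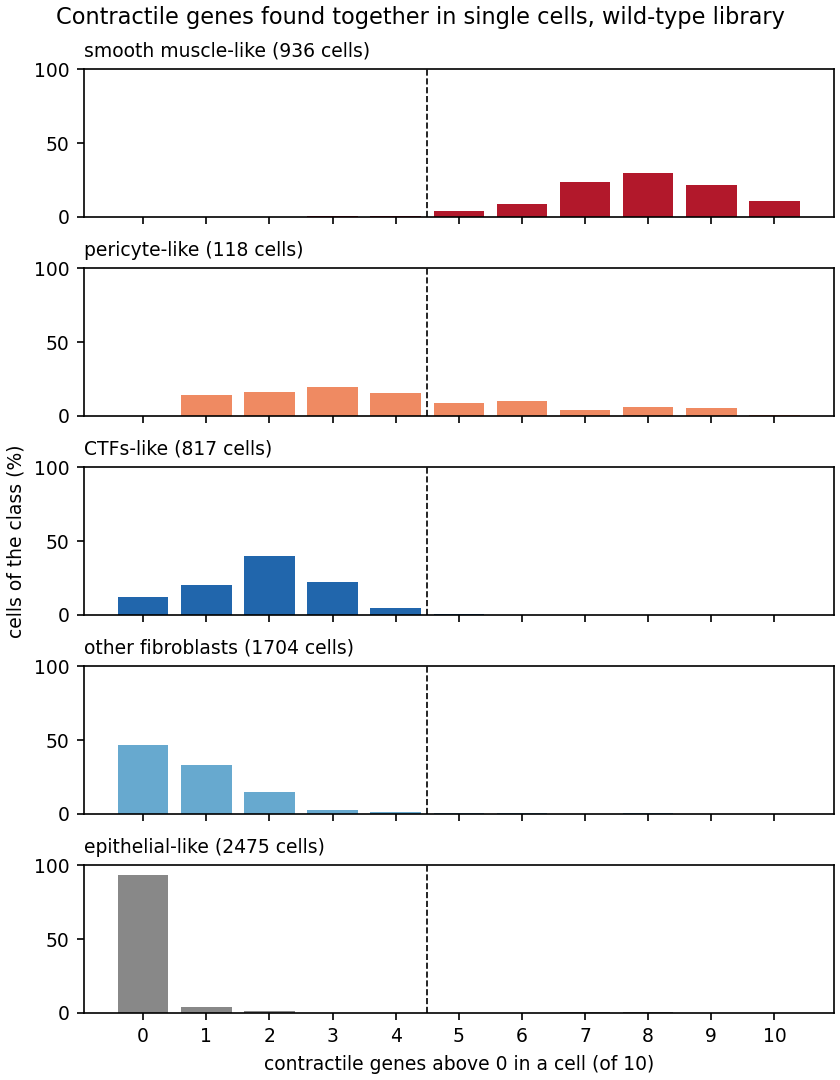
Share of the cells of each wild-type class (vertical axis, percent) by the number of the 10 contractile genes above 0 in a cell (horizontal axis), with a dashed line before 5 genes. Smooth muscle-like cells centre on 8, CTFs on 2 and epithelial cells on 0, while pericytes spread from 1 to 10.

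Within the smooth muscle-like class the members varied together to different degrees. Over its 936 cells, on the ln(1 + value) scale, the correlation was 0.732 for Acta2 with Tagln, 0.703 for Acta2 with Actg2, 0.626 for Actg2 with Tagln and 0.571 for Actg2 with Cnn1. The 4 members with low counts had lower values with all others: 0.091 to 0.309 for Des, 0.091 to 0.282 for Synpo2, 0.115 to 0.316 for Actc1 and 0.115 to 0.303 for Myocd. The cells share 1 library and its depth, and low counts limit how high such values can be.

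Clustering of the smooth muscle-like cells, again without the contractile genes, gave 5 sub-clusters. The largest, of 498 cells, was led by the haemoglobin gene Hbb-bs, a gene of red blood cells, and Chrdl2. The next, of 224 cells, was led by the early-response genes Nr4a3, Nfil3 and Csrnp1 and had the highest mean of 8 members, among them Myh11 at 27.8, Cnn1 at 9.87 and Actc1 at 2.49. A sub-cluster of 88 cells had among its leading genes the secreted WNT modulators Dkk2 and Rspo3 and the chloride channel gene Ano1. It had the lowest mean Actg2, at 8.92, and the lowest mean Actc1, at 0.409, while Acta2 was 80.5. Markers of interstitial cells of Cajal, Ano1 among them, had a mean log2 ratio of 4.11 in this sub-cluster over the others. In each other sub-cluster this mean was negative. The 4 markers of this list were sparse, with a summed mean of 0.218 over the whole smooth muscle-like class. Ano1 was found in 27.3% of the 88 cells. Kit, also in the list, was found in only 0.427% of the smooth muscle-like class, so few of the 88 cells can hold it. Whether the 88 cells include interstitial cells of Cajal was not tested. A sub-cluster of 87 cells held 6.71 of the 7 epithelial markers on average and a median of 1711 genes, and had the lowest means of most members. A sub-cluster of 39 cells was led by the fibroblast genes Pdgfra, Htra3 and Clec3b with a median of 3922 genes. The highest sub-cluster mean divided by the lowest was 1.91 for Acta2 and 2.33 for Tagln, 6.09 for Actc1 and 8.4 for Myocd, whose lowest mean was that of the 87 cells. The part of epithelial RNA, doublets or cell handling in these differences was not tested.

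**Figure D5:**
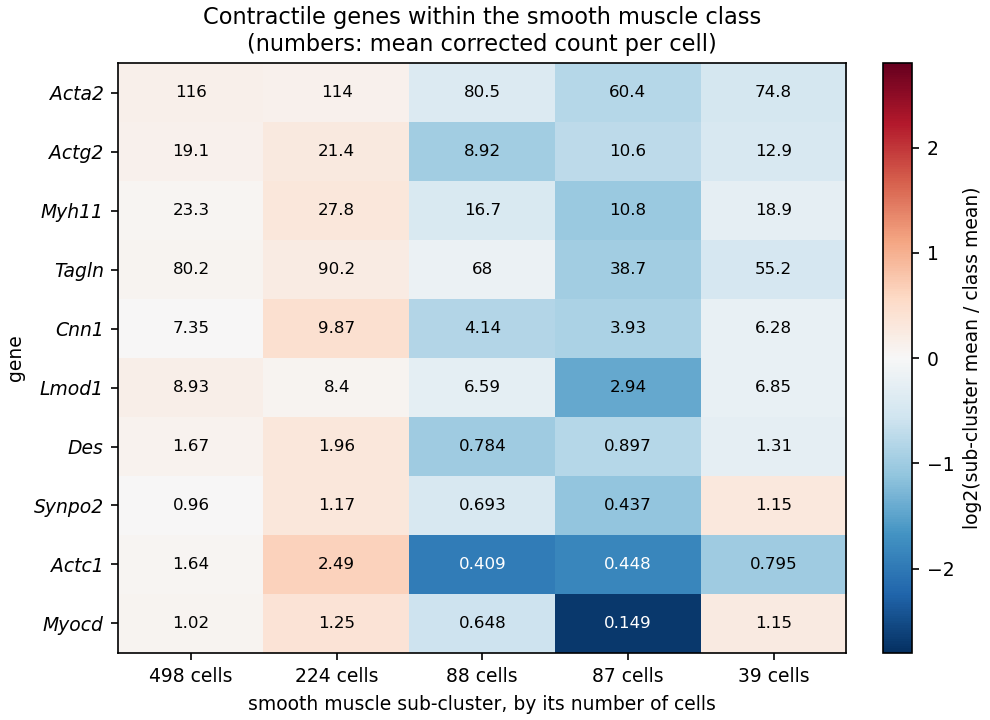
Mean corrected count of each contractile gene in 5 sub-clusters of smooth muscle-like cells, each given by its number of cells, with colour giving the log2 ratio to the class mean. Acta2 ranges from 60.4 to 116 between sub-clusters, and Myocd from 0.149 to 1.25.

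Genes of the wider contractile machinery were followed in 4 further lists of 53 genes in all, chosen by function. Between smooth muscle and CTFs, 21 of the 45 that passed the filter were at least 2-fold higher in smooth muscle and 1 was lower. By list these were 7 of 10 genes of myosin light chains and their regulation, 11 of 15 of the thin filament, dense bodies and adhesions, 2 of 9 of calcium handling and 1 of 11 transcriptional regulators. Between CTFs and other fibroblasts 19 of 45 were higher in CTFs and 4 were lower in the wild-type library, and 14 of 42 were higher and 1 was lower in the reporter library. The background shares were those given above for each comparison. Regulators were divided: 3 of 12 were higher and 3 lower in wild-type CTFs.

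Of the 10 light chain genes, 3 were at least 2-fold higher in CTFs than in other fibroblasts of the wild-type library and 3 in the reporter library, and none was lower. Myl9, the regulatory light chain of smooth muscle myosin, had means of 38.1 in smooth muscle, 12.9 in pericytes, 4.77 in CTFs and 0.462 in other fibroblasts. Its log2 ratio of CTFs over other fibroblasts was 3.34 in the first library and 4.16 in the Pdgfra-sorted one. Mylk, the kinase that acts on it, had means of 14.7, 3.12, 2.13 and 0.230, with ratios of 3.16 and 2.50. Ppp1r14a, an inhibitor of the light chain phosphatase, was at 9.83, 1.81, 3.63 and 1.77, with ratios of 1.03 and 0.43. Thus the class means of kinase and substrate fell from smooth muscle through pericytes and CTFs to other fibroblasts, as did those of Acta2. The mean of the phosphatase inhibitor was higher in CTFs than in pericytes. The essential light chain Myl6 was abundant everywhere, at 68.1, 24.1, 17.0 and 8.98, and at 9.20 in epithelium.

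Among thin filament and dense body genes, the tropomyosin Tpm2 had means of 46.7, 11.8, 5.80 and 1.502 in the same order, and Tpm1 of 27.4, 11.6, 7.83 and 2.19. Csrp1, a LIM protein of actin bundles, was at 16.2, 6.16, 5.62 and 2.21. Cald1 (caldesmon, an actin-binding brake on myosin) was nearly level between smooth muscle at 14.0, pericytes at 10.5 and CTFs at 12.4, and was 4.54 in other fibroblasts. Pdlim3, an adaptor of actin anchors, was at 7.13, 2.21, 3.29 and 0.449, with CTF ratios of 2.85 and 3.74. Of calponins, the broadly used Cnn2 was at 2.34 in smooth muscle and 1.63 in CTFs, unlike Cnn1 at 7.29 and 0.0171. Hence CTFs differed from smooth muscle by the muscle form of calponin more than by the general one.

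Of the calcium genes, Casq2 (a calcium store protein of the sarcoplasmic reticulum) had a mean of 1.85 in smooth muscle, 0.153 in pericytes, 1.42 in CTFs and 0.030 in other fibroblasts. Its log2 ratio of CTFs over other fibroblasts, at 5.16 for wild-type and 4.05 for Pdgfra-sorted cells, was above that of Acta2 in the first and below it in the second. Mrvi1, a target of the nitric oxide and cGMP pathway that restrains calcium release, was at 0.779, 0.636, 0.515 and 0.0390. Gucy1a3, a subunit of the nitric oxide receptor, was highest in pericytes, at 3.18 against 1.43 in smooth muscle and 1.07 in CTFs. Pde5a, which breaks down cGMP, was at 2.12, 1.42, 1.12 and 0.637, and the calcium pump gene Atp2a2 at 1.89, 1.85, 1.54 and 1.26. Among the regulators, the gut mesenchyme factor Nkx2-3 was at 3.47 in smooth muscle, 2.01 in pericytes, 4.51 in CTFs and 2.00 in other fibroblasts, and Foxf2 at 1.18, 0.076, 1.11 and 0.363. Foxf1, its relative, was at 3.12, 3.89, 3.52 and 1.41. Klf4, known as a repressor of contractile genes, was at 2.98, 6.86, 2.75 and 5.66, and was 2-fold lower in CTFs than in other fibroblasts of the wild-type library (log2 ratio -1.04) and less so in the reporter library (-0.89). Srf, the partner of myocardin, named outside the rule for related genes, was at 0.575, 0.254, 0.346 and 0.232, and at 0.664 in epithelium. Median corrected totals were 9706 in epithelium and 8387.5 in smooth muscle, so no order of these classes was read for Srf. Myocd had its highest mean in smooth muscle.

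The genes whose means over the 19 wild-type clusters were most like the joint pattern of the members were named by Pearson correlation among 13667 genes. They were Kcnmb1, a subunit of the large-conductance potassium channel, at 0.994, Hspb7 at 0.993, the actin cross-linker Flna at 0.987, Myl9 at 0.978 and Slmap at 0.978. The next gene, Trpc6, stood at 0.974. Kcnmb1 was also among the smooth muscle markers that named the class. Of the members, Des was the least like the joint pattern, at 0.517, and the others lay between 0.903 and 0.992. Each member is itself part of the joint pattern, so the values of members are partly built in. The clusters share 1 library, and a single cluster of smooth muscle weighs heavily in such values.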

How the data were processed

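The deposited files gave, for each library, a table of genes by cells in 2 forms. Per the labels and the study's methods, the authors aligned the reads with Cell Ranger to mm10, sorted and filtered cells, and used Seurat 3.1 in R 3.6.2. The deposited table named as raw was treated as a score: its whole numbers are the authors' counts after SCTransform regression on depth, not counts as sequenced, so no count model was fitted. The second deposited table was its natural log, ln(1 + value), within 5.3e-15. The wild-type library used the V3 and the reporter library the V2 kit. Totals per cell ran from 6120 to 16389 (median 8972) and from 2314 to 4432 (median 3150). The libraries shared 1 cell barcode. The depth before correction is not known.

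All 7495 and 4409 deposited cells were kept. The wild-type table holds more cells than the study's final set: 101 of its cells had 25% or more mitochondrial values, the limit in the study's methods, and 7394 lay within all its limits. Cells were clustered in Seurat 5.3.0 (R 4.3.3; 3000 variable features, of which 2961 and 2973 were used once the members and related genes were left out; 30 components; resolution 0.45 and 0.3; 19 and 8 clusters) and named from marker lists by a rule adjusted after clusters were seen, so names may differ from the study's. A set of 732 wild-type cells stayed unnamed. Scrublet (scanpy 1.11.5) called 7 and 5 cells, too few to have worked, and doublets were kept. Class means were compared with a pseudocount of 0.01, a filter of 20 summed values and a fold of 2. Tables were made in Python 3.11.15 (numpy 2.4.6, scipy 1.17.1, pandas 2.3.3, matplotlib 3.10.9), and the ratio and likeness steps were tested on simulated data. The named related genes were, by list, those highest in smooth muscle and those with the largest difference between CTFs and other fibroblasts, and named likeness genes were the first 5; Srf was named after its values were seen. Alternatives included other clusterings, thinning, another pseudocount and leaving out doubtful cells. The members and lists were chosen with earlier results of these data known. For a pair of clusters 1 of the leading genes is not reported here.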

Additional observations from a re-analysis of the deposited data

How the results depend on the processing

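No paired analysis was possible because each library is 1 sample and no comparison has a test. Class comparisons and shares were recomputed with other clusterings, filters, scalings and left-out cells, and a median was held to have moved past 1.5-fold. Of these comparisons across alternatives, 111 stayed, 28 moved and 3 reversed, and among single genes 414 stayed and 107 moved, and 0 of the values past 2-fold changed sign; the causes were not tested. The median log2 ratio of smooth muscle over CTFs (6.45) was 5.04 after thinning and 4.01 with a pseudocount of 0.1. That of smooth muscle over pericytes (2.28) was 3.20 without cells above 10% mitochondrial values and 1.21 without stromal cells with 3 or more epithelial markers. That of pericytes over CTFs (3.93) was 3.14, 3.08, 2.27 and 4.99 without high-mitochondrial cells, after thinning, with the pseudocount of 0.1 and without epithelial-marker cells. That of CTFs over other fibroblasts, which mixes members of both directions, was -0.47 in the wild-type library and became 0.0725 with the members kept among the clustering features and 0.053 without the top 5% of Scrublet scores, an alternative added after the data were seen, as was the epithelial-marker one; in the reporter library it was -0.05, 0.06 with Cnn1 and Lmod1 placed at 3 values over the class, and 1.85 with the members kept in. Under every alternative tried Acta2, Tagln, Synpo2 and Myh11 stayed above 0 and Des, Lmod1 and Myocd stayed below 0 in CTFs over other fibroblasts of the wild-type library, whereas Cnn1, within 2-fold, changed its sign in 3 of 11. In smooth muscle, cells with 5 or more members (98.6%) were 99.7% at resolution 0.8, 92.0% after thinning, 99.7% without epithelial-marker cells and 99.8% for 3 or more members. In pericytes (34.7%) they were 20.3% after thinning, 60.5% without epithelial-marker cells and 69.5% for 3 or more members. In wild-type CTFs (0.857%) they were 0.245% after thinning, 27.7% for 3 or more members and 0.245% when a value of at least 2 was asked; in other fibroblasts (1.17%) they were 0.609% with the members kept in, 0.469% after thinning, 0.245% without the top Scrublet scores, 4.99% for 3 or more members and 0.704% at a value of at least 2. In the reporter library the shares for 3 or more members were 15.4% in CTFs and 0.888% in other fibroblasts. At 3-fold in place of 2-fold, 4 related genes instead of 12 were higher in pericytes than in CTFs and 9 instead of 19 higher in CTFs than in other fibroblasts of the wild-type library. On ln(1 + mean), 3 of the first 5 likeness genes stayed among the first 5. With corrected values, 118 pericytes and no replicate libraries, small differences between classes cannot be told from counting error or from the mice.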

Other observations

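A pair of small wild-type clusters that could not be named also held the contractile genes. One, of 20 cells with Pcp4, Hand1, Cckar and Nog among its leading genes, held both smooth muscle markers and Kit, the receptor of interstitial cells of Cajal, at a mean of 6.35. Ano1, a further Cajal marker, was found in all 20 cells at a mean of 5.4. Of the smooth muscle marker sum of 34.5, Pcp4 gave 22.65, but Pcp4 was found in only 0.214% of smooth muscle-like cells. Hhip was 1.8 in this cluster and 18.6 in the smooth muscle-like class. Among the marker lists, the cluster scored highest for interstitial cells of Cajal. Its mean Acta2 was 29.6 and its mean Tagln 17.0, and Actg2 was found in all 20 cells at a mean of 11.5. Actc1 and Myocd were at 0 in it (0 of 20 cells allows a share of up to 15%), and Des was 0.45. At least 5 of the contractile genes were found in 70.0% of its cells. The other, of 102 cells, held pericyte and endothelial markers together and a median of 3850 genes, above the 2102 of the pericyte-like class. Its mean Acta2 was 22.3, its mean Tagln 17.3 and its mean Myh11 6.58, and Des was found in 92.2% of its cells at a mean of 3.34, so it resembled the pericyte-like class in these genes. At least 5 of the contractile genes were found in 36.3% of its cells and in 34.7% of the pericyte-like class. Hhip, which led the smooth muscle markers, was 5.25 in it and 0.186 in the pericyte-like class.

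Outside the stromal classes Acta2 was found in 37.7% of the 594 blood endothelial-like cells at a mean of 1.47. Of the 78 glia-like cells 20.5% held it, and 1 cell at 130 of a sum of 214 made up much of their mean of 2.74. In endothelial-like cells 1.85% held 5 or more of the genes. Whether these values come from endothelial cells, attached mural cells or free RNA was not tested.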
